A study of Mus musculus with 3 samples.

Results

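The serpins are a family of serine protease inhibitors and their relatives, and the arrays measured 53 mouse serpin genes with 71 probes, of 27666 genes and 41169 probes in all. A probe was included when the array's own gene name was Serpin followed by a clade letter from a to i, a number and any letters. The label fits the names, but not every member inhibits proteases: Serpinh1, Serpina6, Serpina7, Serpinf1 and Serpinb5 are known as serpins without that activity. RNA was taken from muscle of male mice, labelled six-week-old, after 14 days on the diet. The Chlorella swimming group ate food with 0.5% Chlorella powder, a green alga, and swam. The swimming group ate normal food and swam, and the nonswimming group ate normal food and did not swim. Each group was 1 pool of RNA from 10 mice on 1 single-colour Agilent array, and the labels do not say which muscle was used. With 1 array per group there is no replicate check and no p-value. The differences below compare 3 pools, not 3 conditions.

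An inhibitory serpin carries an exposed loop that a protease cuts as if it were a substrate. The cut loop then folds into the body of the serpin and drags the protease with it, so that both are trapped in one dead complex. Clade A and the antithrombin, heparin cofactor, antiplasmin and C1 inhibitor genes are mostly made by the liver and secreted into plasma, where they restrain elastase, clotting and complement enzymes. Clade B serpins have no classical secretion signal, act mainly inside cells, and are known from blood cells and from surface epithelia. Skeletal muscle also holds vessels, connective tissue and nerve, in which Serpine2, Serpinf1, Serpinh1 and Serpini1 are known to be made.

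Signals are given as the scanner software's processed signal of the brightest probe of each gene, in arbitrary units. Ratios are log2 ratios after each signal was divided by the 75th percentile of its array, which was 237.8 on the Chlorella swimming array, 295.0 on the swimming one and 285.9 on the nonswimming array. The ± beside a ratio is the scanner software's own error of the probe, which leaves out any difference between mice. A gene was called higher or lower when it was well above background on both arrays and differed at least 2-fold. Where only 1 of the compared arrays held a gene well above background, the difference is a bound, written as at least N-fold, set from the lowest signal well above background on the dim array (6.26 on Chlorella swimming, 5.78 on swimming, 6.45 on nonswimming) or from the dim probe itself where that was higher. Signals of different genes come from different probes and are not compared. The arrays had 23448, 24857 and 23841 probes well above background for Chlorella swimming, swimming and nonswimming, and no probe was saturated. All 3 arrays lay on 1 slide and were read in 1 scan.

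Of the 53 serpin genes, 28 were well above background on all 3 arrays, 3 on 2 arrays, 2 on 1 array and 20 on none. By probe, 38 of 71 (53.5%) were well above background on at least 1 array, against 63.0% of all probes. The 20 genes well above background on no array were Serpina1f, Serpina3a, Serpina3b, Serpina3f, Serpina5, Serpina7, Serpina9, Serpina12, Serpinb3a, Serpinb3b, Serpinb3d, Serpinb9b, Serpinb9c, Serpinb9d, Serpinb9e, Serpinb9g, Serpinb11, Serpinb12, Serpinb13 and Serpini2. Most of them are clade B genes, and of the 9 genes in clade B groups 3, 5, 7 and 11 to 13, 6 were among these. The mouse Serpina1, Serpina3, Serpinb1, Serpinb3, Serpinb6 and Serpinb9 genes are groups of related copies. The accessions of 6 of the 71 probes name more than 1 gene, all in the Serpina1, Serpinb3 and Serpinb9 groups, so a signal of those probes may be shared between copies. The accessions of 8 others name no gene, so these were named by symbol and their sharing could not be judged. Among them are the probes that stand for Serpina1b, Serpina3g, Serpina10 and Serpinb3c. The probe for Serpina1d names Serpina1c, Serpina1d and Serpina1e, and that for Serpina1e also names Serpina1b.

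Promoter windows were held for 44 of the 53 genes, in the RefSeq table for build GRCm38.p6, each running from 250 bases before to 50 bases after the gene's start. The 5 shown belong to genes whose signals the results below turn on: Serpina3g and Serpinb10 stood out on the swimming array, Serpinf2 and Serpind1 were low on the Chlorella swimming array, and Serpinb5 was seen on the nonswimming array alone. They are read 5′ to 3′ along the gene, at chr12:104235897-104236196 on the plus strand (Serpina3g), chr1:107528753-107529052 on the plus strand (Serpinb10), chr1:106860925-106861224 on the plus strand (Serpinb5), chr11:75439452-75439751 on the minus strand (Serpinf2) and chr16:17331121-17331420 on the plus strand (Serpind1). Capitals mark every match, on either strand, to 7 short motifs: TATAAA, at which the basal transcription machinery can bind, CCAAT, which is bound by factor NF-Y, GGGCGG, bound by the factor Sp1, TTCNNNGAA (a palindrome bound by STAT factors), GAGGAA (a core bound by the ETS factor PU.1), TGTTCT (a glucocorticoid receptor half-site) and GTTAAT (an HNF1 half-site).
Serpina3g: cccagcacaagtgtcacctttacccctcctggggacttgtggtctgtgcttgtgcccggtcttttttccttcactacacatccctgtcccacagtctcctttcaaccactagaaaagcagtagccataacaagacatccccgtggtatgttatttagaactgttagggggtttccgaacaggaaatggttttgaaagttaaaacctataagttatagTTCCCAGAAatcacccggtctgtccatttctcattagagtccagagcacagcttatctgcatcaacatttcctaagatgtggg
Serpinb10: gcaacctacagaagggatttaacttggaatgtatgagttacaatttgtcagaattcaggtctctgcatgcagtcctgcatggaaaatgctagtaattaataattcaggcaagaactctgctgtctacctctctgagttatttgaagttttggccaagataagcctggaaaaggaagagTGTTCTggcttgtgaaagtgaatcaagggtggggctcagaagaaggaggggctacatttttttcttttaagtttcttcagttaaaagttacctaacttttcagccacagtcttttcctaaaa
Serpinb5: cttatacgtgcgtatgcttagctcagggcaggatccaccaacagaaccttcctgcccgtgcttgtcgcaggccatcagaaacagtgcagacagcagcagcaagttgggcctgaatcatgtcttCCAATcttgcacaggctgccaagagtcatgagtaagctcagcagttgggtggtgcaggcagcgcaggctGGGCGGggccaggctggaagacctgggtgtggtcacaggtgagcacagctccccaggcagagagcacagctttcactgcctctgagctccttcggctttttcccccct
Serpinf2: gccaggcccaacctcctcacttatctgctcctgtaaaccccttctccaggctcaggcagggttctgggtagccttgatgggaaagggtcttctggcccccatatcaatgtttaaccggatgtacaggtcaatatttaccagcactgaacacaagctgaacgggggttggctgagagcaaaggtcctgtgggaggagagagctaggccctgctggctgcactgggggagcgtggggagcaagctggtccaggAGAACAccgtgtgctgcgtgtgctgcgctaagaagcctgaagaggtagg
Serpind1: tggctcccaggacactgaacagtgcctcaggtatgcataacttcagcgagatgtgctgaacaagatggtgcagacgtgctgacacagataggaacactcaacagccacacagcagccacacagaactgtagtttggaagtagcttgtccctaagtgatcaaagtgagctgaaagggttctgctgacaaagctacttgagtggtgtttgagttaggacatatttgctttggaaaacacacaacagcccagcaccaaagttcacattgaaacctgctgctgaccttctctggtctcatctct

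Serpina3g held 1 match, to the STAT palindrome, ending close to its start. That motif is in 8.30% of all 32851 windows and in 10 of the 52 windows of serpin genes. Serpinb10 and Serpinf2 held 1 match each to the glucocorticoid receptor half-site, which is in 19.0% of all windows and in 18 of the 52. Serpinb5 held an NF-Y motif (37.4% of all windows, 16 of the 52) and an Sp1 motif (35.7% of all windows, 8 of the 52), and Serpind1 held no match. The basal motif is in 13.6% of all windows and in 18 of the 52, the PU.1 core in 28.3% and 12, and the HNF1 half-site in 7.10% and 10. No printed match overlaps another. A match describes the letters only, and no binding was measured.

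Across the family, most measured serpin signals were lower on the Chlorella swimming array than on either other array. Against nonswimming, 24 of 28 measured genes had a ratio below 0 (85.7%), where 45.3% of all measured genes did. The median ratio was -0.47 for the serpins and 0.04 for all genes. The 4 genes above 0 were Serpina10, Serpinb3c, Serpinb6a and Serpinb6b. Of the 24, 19 stayed below 0 under every alternative processing that gave a value. Against swimming, 20 of 28 were below 0 (71.4%, against 40.1% of all genes), with a median of -0.24 against 0.08 for all genes, and 16 of them stayed so under every alternative. On the swimming array against the nonswimming array, 19 of 31 were below 0 (61.3%, against 55.1% of all genes), with a median of -0.19 against -0.04 for all genes. The first 2 comparisons share the Chlorella swimming array, and each other array also serves in 2 comparisons, so the 3 are not independent.

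Few serpins passed 2-fold. In the comparison of Chlorella swimming with swimming, 1 of 28 measured serpins was higher, where 1.37% of all measured genes were, and 4 were lower, where 4.86% were. Of the 4 serpins well above background on the swimming array alone, 3 were at least 2-fold lower by bound, and none of the 4 could be higher. Of all genes well above background on only 1 of these 2 arrays, whichever it was, 26% were lower and 10.5% were higher. In Chlorella swimming against nonswimming, none of 28 was higher (2.07% of all genes) and 1 was lower (1.49% of all genes). By bound 2 more were lower, of 4 serpins well above background on the nonswimming array alone, none of which could be higher. Of all genes well above background on only 1 of these 2 arrays, whichever it was, 16.8% were lower and 13.9% were higher. In swimming against nonswimming, 2 of 31 were higher (5.14% of all genes) and 2 were lower (1.07% of all genes). By bound 1 of 2 serpins well above background on only 1 of these arrays was lower and none was higher. Of all genes well above background on only 1 of them, 15.3% were lower and 24.6% were higher. With so few genes, none of these shares is read as particular to the serpins.

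**Figure D1:**
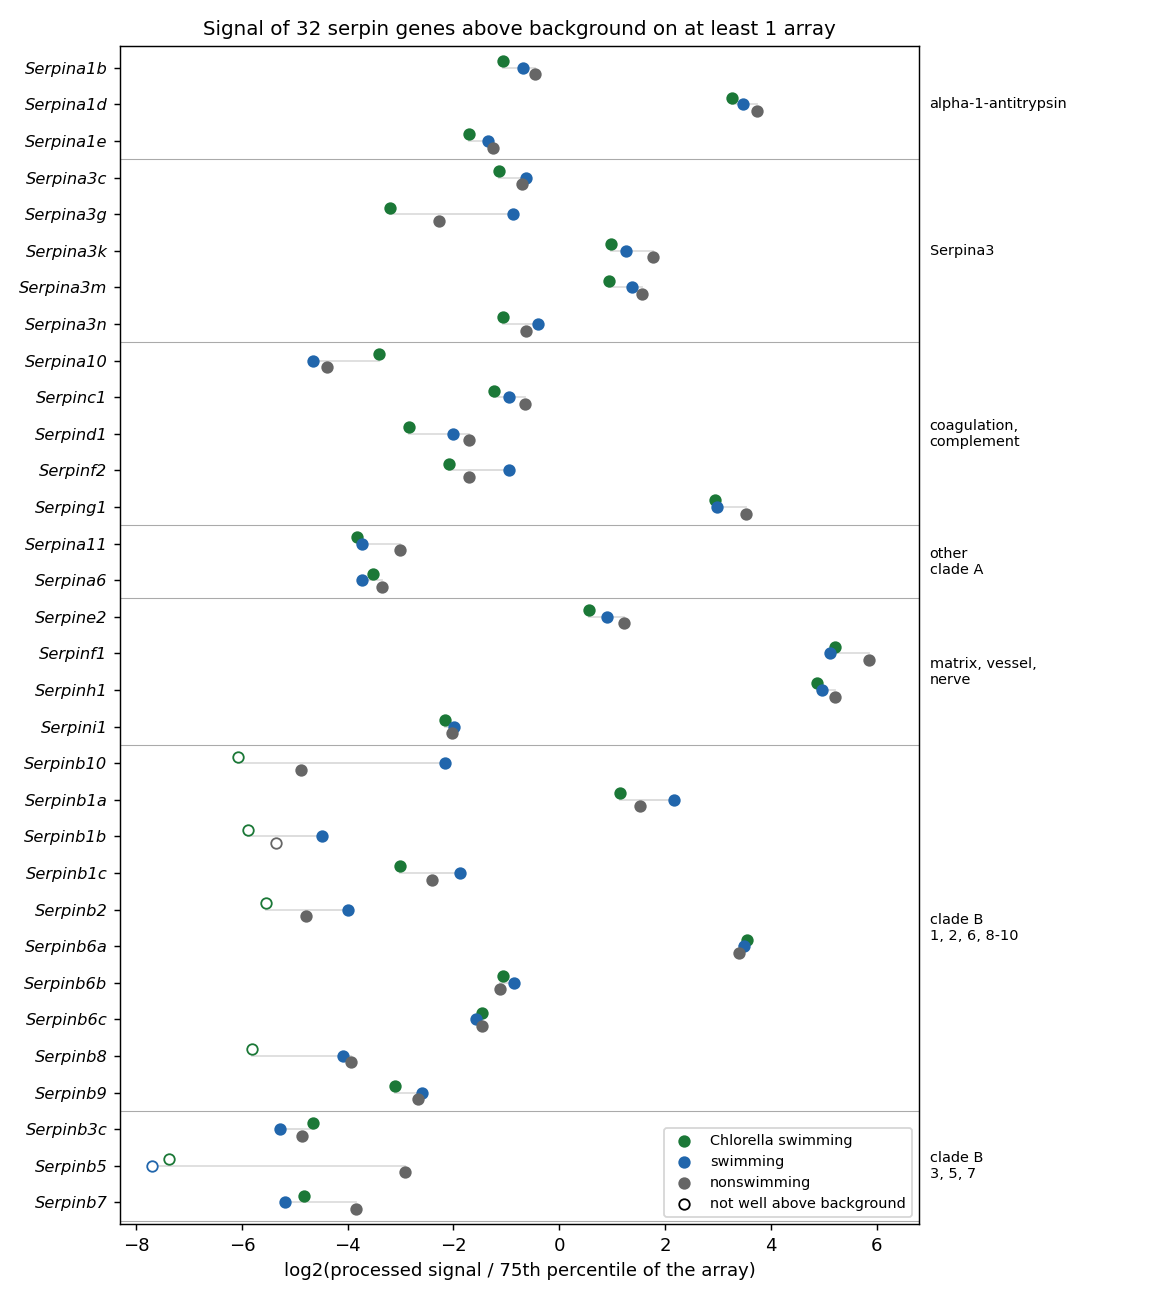
Log2 of the processed signal over the 75th percentile of its array (x axis) for 32 serpin genes (y axis) well above background on at least 1 array, grouped by role; each point is 1 array and open points are not well above background. The green Chlorella swimming points lie to the left of the grey nonswimming points for 23 of the 27 genes drawn that were measured on both, and Serpina3g, Serpinb10 and Serpinf2 have their rightmost point on the swimming array.

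**Figure D2:**
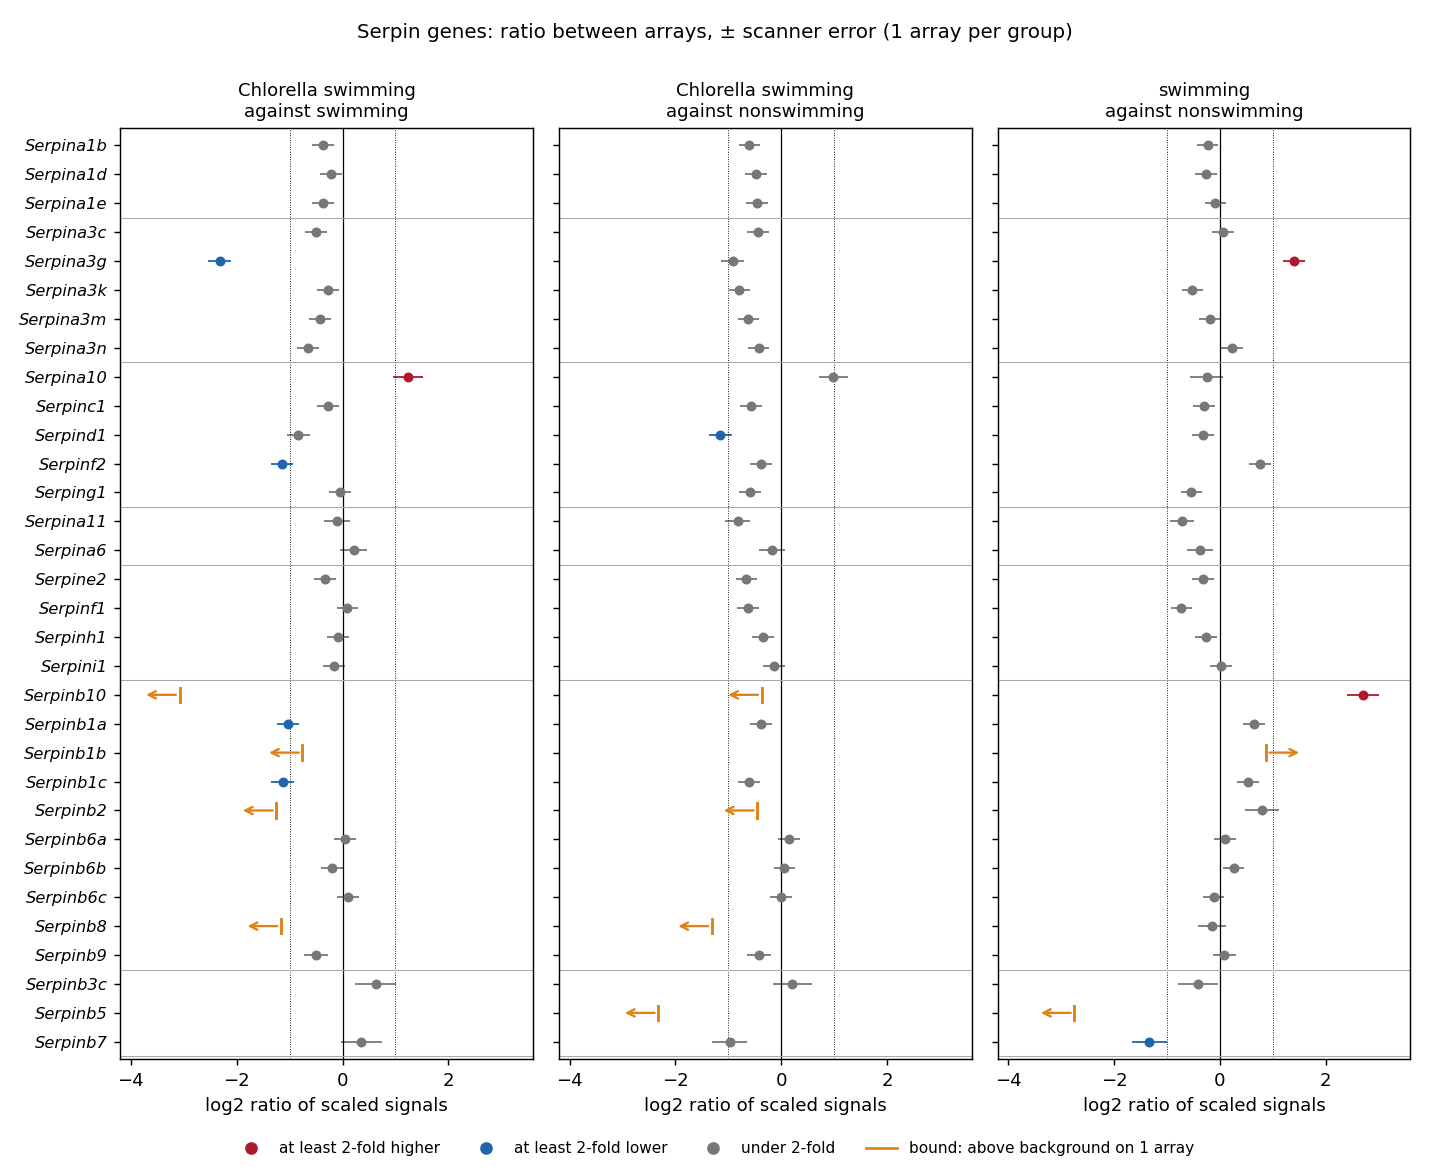
Log2 ratio of scaled signals (x axis) for the same 32 genes (y axis) in the 3 comparisons, with bars of ± 1 scanner error and dotted lines at 2-fold; arrows start at the bound where only 1 of the compared arrays was well above background. Red and blue points passed 2-fold: 1 red and 4 blue in the left panel, 1 blue in the middle panel, and 2 red and 1 blue in the right panel.

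The alpha-1-antitrypsin genes, which encode the main plasma inhibitor of neutrophil elastase, moved little but in one order. Serpina1d had a signal of 2273 on the Chlorella swimming array, 3278 on the swimming one and 3803 on the nonswimming array. Serpina1b had 114.0, 182.8 and 208.1 on those arrays, and Serpina1e had 72.4, 116.1 and 119.3. All 3 genes were lowest with Chlorella and highest without swimming, though probes of these genes may read one another's RNA. For swimming against nonswimming the ratios were within or near the scanner error, at -0.08 ± 0.21 for Serpina1e, -0.23 ± 0.20 for Serpina1b and -0.26 ± 0.20 for Serpina1d. Serpina1d was also near it for Chlorella swimming against swimming, at -0.22 ± 0.20. The 3 ratios lay between -0.60 and -0.45 for Chlorella swimming against nonswimming, between -0.37 and -0.22 for Chlorella swimming against swimming, and between -0.26 and -0.08 for swimming against nonswimming. None passed 2-fold, and each kept its sign under every alternative.

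The Serpina3 genes are the mouse counterparts of human alpha-1-antichymotrypsin, and 5 of the 8 on the array were measured. Serpina3g, also known as Spi2A, is a cytosolic inhibitor of lysosomal cathepsins known from leukocytes. It had a signal of 26.0 on the Chlorella swimming array, 161 on the swimming one and 59.1 on the nonswimming array. The swimming array stood above both others. The ratio was -2.32 ± 0.22 for Chlorella swimming against swimming, a fold of 4.99 lower, and 1.40 ± 0.21 for swimming against nonswimming, a fold of 2.64 higher. For Chlorella swimming against nonswimming it was -0.92 ± 0.22, short of 2-fold. The first was at least 2-fold under all 9 alternatives (-2.37 to -1.25), and no other called ratio among the serpins was.

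The other measured Serpina3 genes shifted less. Serpina3k, a binding protein of kallikrein, had signals of 471 on the Chlorella swimming array, 706 on the swimming one and 981 on the nonswimming array. Its ratio was -0.79 ± 0.20 for Chlorella swimming against nonswimming and -0.52 ± 0.20 for swimming against nonswimming, and a second probe gave -0.70 and -0.53. Serpina3m had 458, 763 and 846 on the same arrays, with a ratio of -0.62 ± 0.20 for Chlorella swimming against nonswimming. Serpina3n, an acute-phase inhibitor of granzyme B and elastase, had 113.6, 222.3 and 183.9 on those arrays, highest on the swimming one. Serpina3c had 108.2, 190.0 and 176.6. All 5 measured Serpina3 genes were below 0 in both comparisons of the Chlorella swimming array and under every alternative, with medians of -0.50 against swimming and -0.62 against nonswimming. In swimming against nonswimming they split 3 above and 2 below 0.

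The inhibitors of clotting, fibrinolysis and complement did not move as one. Serpinf2, which encodes alpha-2-antiplasmin, the main plasma inhibitor of plasmin, had a signal of 55.8 on the Chlorella swimming array, 152.6 on the swimming one and 87.9 on the nonswimming array. Its ratio was -1.14 ± 0.21 for Chlorella swimming against swimming, 2.20-fold lower, -0.39 ± 0.21 for Chlorella swimming against nonswimming and 0.75 ± 0.21 for swimming against nonswimming. In the authors' deposited table the first was -0.27.
Serpind1, heparin cofactor II, a thrombin inhibitor, had 33.0 on the Chlorella swimming array, 73.3 on the swimming one and 88.2 on the nonswimming array. It was the only serpin measured on both arrays that was called in Chlorella swimming against nonswimming, at -1.15 ± 0.22 or 2.22-fold lower, and the ratio against swimming was -0.84 ± 0.22. Serpina10, the protein Z-dependent inhibitor of clotting factor Xa, ran the other way. It had 22.3 on the Chlorella swimming array, 11.7 on the swimming one and 13.6 on the nonswimming array, with ratios of 1.24 ± 0.28 against swimming, 2.36-fold higher, and 0.98 ± 0.27 against nonswimming. The probe behind these values was named by symbol only. The second Serpina10 probe, named by accession, was not well above background on any array.

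Serpinc1, antithrombin, had signals of 101.6 with Chlorella swimming, 151.9 with swimming and 181.5 with nonswimming, and ratios of -0.57 ± 0.21 for Chlorella swimming against nonswimming and -0.30 ± 0.20 for swimming against nonswimming. Its second probe gave -0.78 and -0.16. Serping1, the C1 inhibitor that restrains complement and contact proteases, had 1823, 2339 and 3296 on the same arrays. It was nearly level between the swimming arrays (-0.05 ± 0.20) and lower on both than on the nonswimming array (-0.59 ± 0.20 with Chlorella and -0.54 ± 0.20 without). Serpina6, the carrier of corticosteroids, had 20.7, 22.2 and 28.0, and Serpina11 had 16.7, 22.2 and 35.5. Both were highest on the nonswimming array, with ratios of -0.17 ± 0.25 and -0.82 ± 0.24 for Chlorella swimming against nonswimming.

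Listed together, 13 measured serpins of plasma and liver had medians of -0.27 for Chlorella swimming against swimming, -0.57 for Chlorella swimming against nonswimming and -0.26 for swimming against nonswimming. They were below 0 in 11, 12 and 11 of 13 cases in those comparisons. Of all measured serpins, 20 of 28, 24 of 28 and 19 of 31 were. Markers of hepatocytes, a cell type that muscle lacks, were also measured. The summed level of the 12 hepatocyte markers, each signal over the array's 75th percentile, was 26.8 on the Chlorella swimming array, 41.1 on the swimming one and 41.2 on the nonswimming array. None of the 12 was dim on all arrays, and albumin (Alb) had signals of 1187, 1922 and 2451. Cyp2e1, a liver cytochrome P450, made up 36.1%, 52.1% and 30.6% of these sums, and the other 11 markers summed to 17.1, 19.7 and 28.6, a sum without the leading marker that was added after the data were seen. Of the 11 measured markers, 7, 10 and 10 were below 0 in the 3 comparisons, with medians of -0.12, -0.78 and -0.54. The part of liver RNA in the serpin values was not tested. In bulk tissue, fewer cells of a type and less RNA per cell cannot be told apart.

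**Figure D3:**
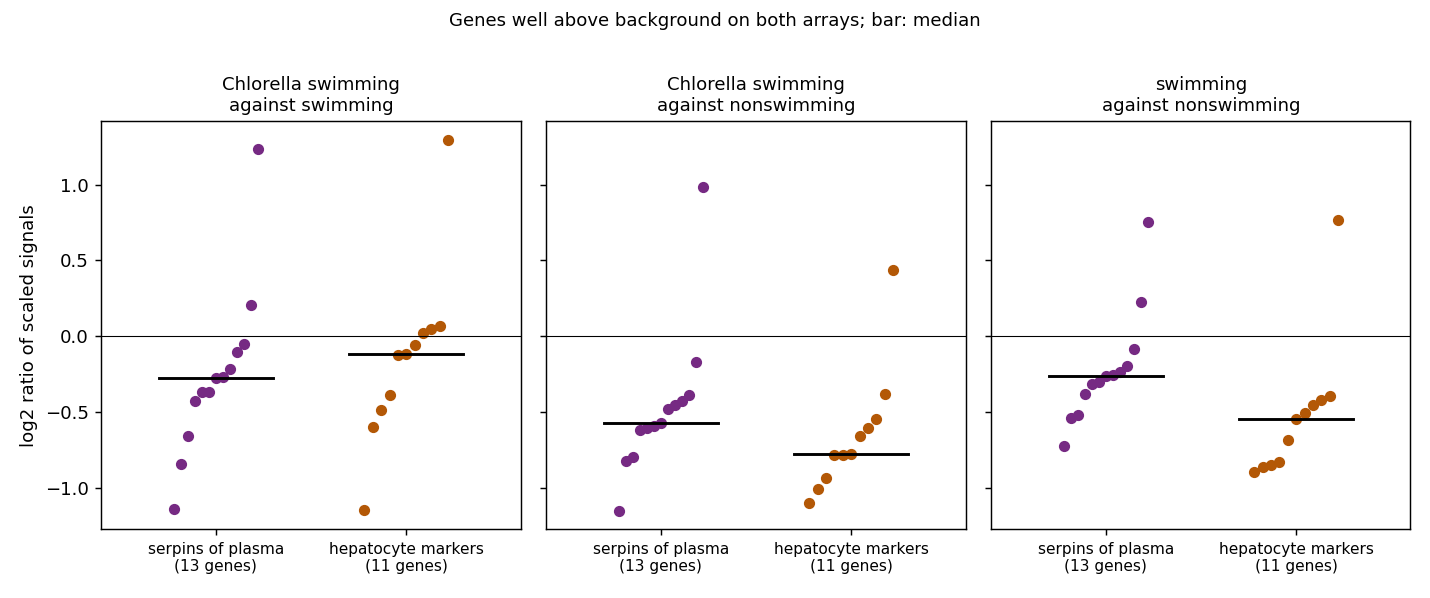
Log2 ratio of scaled signals (y axis) for the 13 measured serpins of plasma and liver (purple) and the 11 measured hepatocyte markers (brown) in the 3 comparisons; each point is 1 gene and the bar is the median. In the middle panel 12 of 13 serpins and 10 of 11 markers lie below 0, and the highest purple point in the left and middle panels is Serpina10.

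The known partners of these inhibitors were also measured. Of 16 genes for clotting and fibrinolysis proteases and their receptors, 13 were measured and none passed 2-fold in any comparison, with medians of 0.01 for Chlorella swimming against swimming, -0.32 for Chlorella swimming against nonswimming and -0.28 for swimming against nonswimming. Thrombin (F2) had signals of 174 with Chlorella swimming, 270 with swimming and 384 with nonswimming, a ratio of -0.88 ± 0.20 for the first against the last. Of 8 measured genes for complement and contact proteases and their substrates, 1 passed 2-fold: C4b, a complement component cut by the C1 protease, had 216, 520 and 624 on the same arrays and a ratio of -1.27 ± 0.20 for Chlorella swimming against nonswimming. Among 7 measured cofactors and clearance receptors, Lrp2, an endocytic receptor best known from kidney tubule, had 84.3, 181.6 and 37.6. Its ratio was 2.23 ± 0.21 for swimming against nonswimming and 1.43 ± 0.22 for Chlorella swimming against nonswimming. Kidney tubule markers summed to 8.40, 36.6 and 5.84 on the 3 arrays, and 5 of 5 measured ones were higher in swimming against nonswimming. Kap alone made up 90.1%, 89.4% and 91.0% of these sums, and without it they were 0.83, 3.89 and 0.52. The part of kidney RNA in the Lrp2 value was not tested.

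Of the serpins of matrix, vessel and nerve, Serpinh1, Serpinf1 and Serpine2 were lower on the Chlorella swimming array than on the nonswimming array. The difference of Serpini1 lay within its scanner error. Serpinh1, known as HSP47, is a collagen chaperone of the endoplasmic reticulum, and had signals of 6986 with Chlorella swimming, 9174 with swimming and 10641 with nonswimming. After scaling its ratios were small, -0.08 ± 0.20 for Chlorella swimming against swimming, -0.34 ± 0.20 for Chlorella swimming against nonswimming and -0.26 ± 0.20 for swimming against nonswimming. None of 18 measured genes for fibrillar collagens and their folding partners passed 2-fold in any of the 3, with medians of 0.18, -0.10 and -0.14. Serpinf1, pigment epithelium-derived factor, known as an inhibitor of vessel growth, had 8839, 10280 and 16483 on those arrays. Both swimming arrays lay below the nonswimming array, with ratios of -0.63 ± 0.20 with Chlorella and -0.73 ± 0.20 without. A second Serpinf1 probe passed 2-fold, at -1.11 and -1.06.

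Serpine2, protease nexin 1, an inhibitor of thrombin and urokinase at cell surfaces, had signals of 352 with Chlorella swimming, 552 with swimming and 668 with nonswimming, with a ratio of -0.66 ± 0.20 for Chlorella swimming against nonswimming. Of its targets, Plau, urokinase, had 496, 685 and 986 on those arrays and did not pass 2-fold. Serpini1, neuroserpin, had 53.2, 74.0 and 70.5, and its ratio was -0.14 ± 0.21 for Chlorella swimming against nonswimming. Summed fibroblast markers were 486, 474 and 608 and endothelial markers 25.5, 21.6 and 24.0 on the 3 arrays. Without Col1a2, the leading fibroblast marker, the fibroblast sums were 299, 318 and 405, so Chlorella swimming and swimming changed order. The part of these cell types in the serpin values was not tested.

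Among clade B serpins known from blood cells, several had their highest signal on the swimming array and their lowest on the Chlorella swimming array. Serpinb10, bomapin in humans, where it is known from blood-forming cells, had signals of 3.54 on the Chlorella swimming array, 65.7 on the swimming one and 9.75 on the nonswimming array. The Chlorella swimming signal was not well above background. The ratio was 2.71 ± 0.30 for swimming against nonswimming, 6.53-fold higher, and Chlorella swimming was at least 8.45-fold lower than swimming and at least 1.29-fold lower than nonswimming. A second Serpinb10 probe lay between 1.52 and 1.76 on the 3 arrays and was not well above background on any.

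Serpinb1a, an inhibitor of neutrophil elastase, cathepsin G and proteinase 3, had signals of 526 on the Chlorella swimming array, 1329 on the swimming one and 824 on the nonswimming array. Its ratio was -1.03 ± 0.20 for Chlorella swimming against swimming, 2.04-fold lower and just past the threshold. The ratio was 0.65 ± 0.20 for swimming against nonswimming. Its copy Serpinb1c had 29.5, 80.3 and 54.1 on those arrays and a ratio of -1.13 ± 0.21 for Chlorella swimming against swimming, 2.19-fold lower. The second Serpinb1c probe was dim on every array, and averaging both probes turned that ratio to 0.21. Serpinb1b had 4.03, 13.1 and 6.98, well above background on the swimming array alone, at least 1.69-fold lower with Chlorella swimming than with swimming and at least 1.82-fold higher with swimming than with nonswimming. Serpinb1a and Serpinb1c had the same order over the arrays, while Serpinb1b was dim on both arrays other than the swimming one.

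Serpinb2, plasminogen activator inhibitor 2, known from macrophages, had signals of 5.08 on the Chlorella swimming array, 18.5 on the swimming one and 10.3 on the nonswimming array. It was at least 2.38-fold lower with Chlorella swimming than with swimming, at least 1.37-fold lower than with nonswimming, and at 0.80 ± 0.32 for swimming against nonswimming. A second Serpinb2 probe had 2.60, 8.56 and 2.99 on those arrays, well above background on the swimming array alone. Serpinb8, an intracellular inhibitor of furin in humans, had 4.23, 17.4 and 18.7. It was level between swimming and nonswimming (-0.15 ± 0.26), and at least 2.24-fold and 2.49-fold lower with Chlorella swimming than with swimming and nonswimming. Serpinb9, the granzyme B inhibitor that protects cytotoxic lymphocytes, had 27.8, 48.8 and 44.7 and ratios of -0.50 ± 0.22 and -0.42 ± 0.23 for Chlorella swimming against swimming and nonswimming. Its 2 probes differed in sign for swimming against nonswimming, at 0.08 and -0.13. The Serpinb6 genes, widely expressed inhibitors of cathepsin G and thrombin, differed little between arrays. Serpinb6a had 2784, 3338 and 3020, Serpinb6b had 114.0, 162.0 and 131.4, and Serpinb6c had 86.3, 99.2 and 104.5, and no ratio of the 3 genes went beyond 0.26 in size. A second Serpinb6a probe was dim on every array, and averaging both probes turned the ratio for swimming against nonswimming to -0.57.

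The summed neutrophil markers and the summed T and NK cell markers were highest on the swimming array and lowest on the Chlorella swimming array. So were Serpina3g, Serpinb10, Serpinb2, Serpinb1a, Serpinb1c and Serpinb9, and also Serpinf2, Serpina3c, Serpina3n and Serpini1 after scaling. For swimming against nonswimming, Serpinb9 (0.08 ± 0.22, second probe -0.13), Serpina3c (0.06 ± 0.20) and Serpini1 (0.03 ± 0.21) lay within the scanner error. Serpinf2 (0.75 ± 0.21) and Serpina3n (0.23 ± 0.20), which had the same order, are not described above as serpins of blood cells. The 12 neutrophil markers summed to 3.62 on the Chlorella swimming array, 277 on the swimming one and 16.5 on the nonswimming array, and none was dim on all arrays. S100a9 made up 78.3%, 74.7% and 74.2% of these sums, and without it they were 0.79, 70.2 and 4.25. All 11 measured markers were at least 2-fold higher in swimming against nonswimming, and all 9 measured were at least 2-fold lower in Chlorella swimming against swimming. The 8 T and NK cell markers summed to 0.25, 1.24 and 0.30, with Ncr1 dim on all arrays. Nkg7 made up 20.6%, 58.7% and 30.6% of these sums, and the other 7 summed to 0.20, 0.51 and 0.21. For swimming against nonswimming 2 of the 4 measured markers were at least 2-fold higher, while Cd3e was at 0.05 and Cd4 at -0.11. The 9 macrophage markers summed to 46.2, 118 and 84.2, of which Lyz2, lysozyme, made up 86.4%, 92.0% and 87.5%, and without Lyz2 to 6.30, 9.45 and 10.6. For swimming against nonswimming 4 macrophage markers were above 0 and 5 below (median -0.07), while all 9 were below 0 for Chlorella swimming against swimming (median -0.63) and against nonswimming (median -0.81). Bone cell markers summed to 5.11, 19.7 and 7.22 and adipocyte markers to 480, 778 and 394 on the same arrays, while muscle fibre markers summed to 5999, 4614 and 5497. Bglap made up 29.2%, 69.9% and 41.5% of the bone cell sums, and without it they were 3.62, 5.92 and 4.22. The part of leukocytes or of other tissue in the serpin values was not tested.

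**Figure D4:**
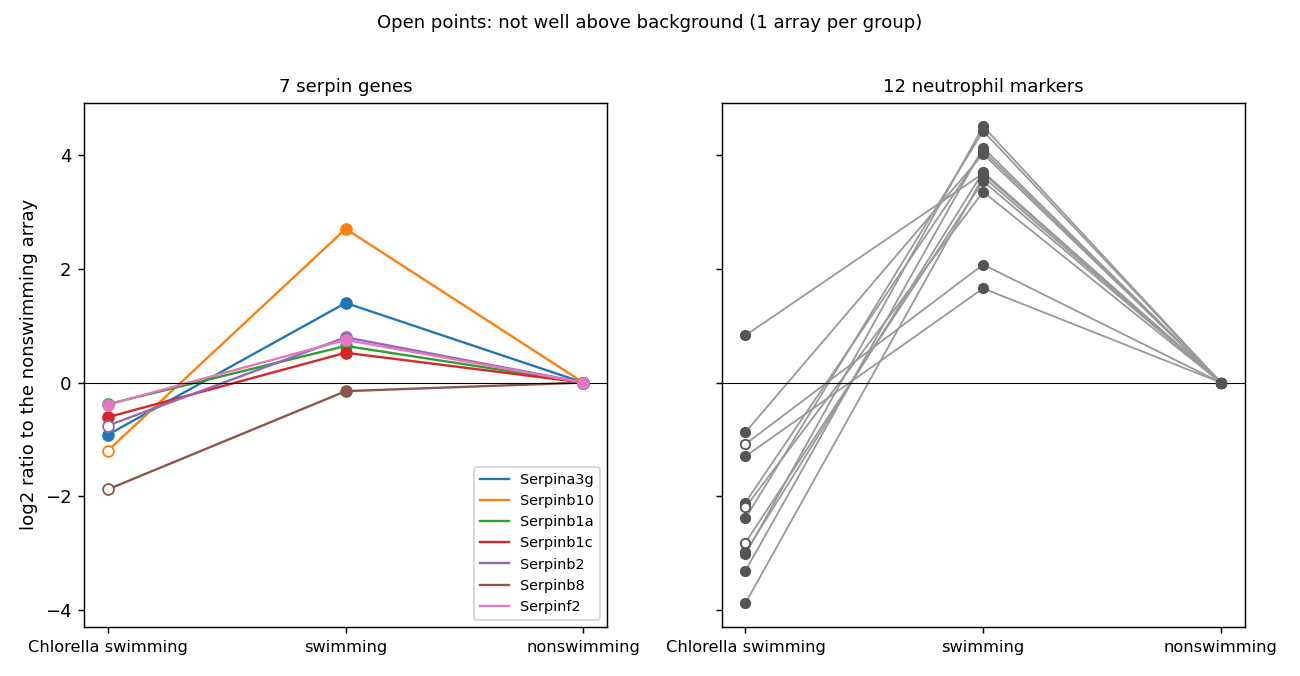
Log2 ratio of each array to the nonswimming array (y axis) for 7 serpin genes (left, coloured) and the 12 neutrophil markers (right, grey) on the 3 arrays (x axis); open points are not well above background. Serpinb10 reaches 2.71 and Serpina3g 1.40 on the swimming array, where the markers lie between 1.66 and 4.51. Serpinb2, Serpinf2, Serpinb1a and Serpinb1c lie there between 0.53 and 0.80, and Serpinb8 at -0.15. The 7 serpins drawn are those called at least 2-fold lower, measured or by bound, for Chlorella swimming against swimming. They were thus chosen for a low Chlorella swimming signal. On that array all 7 lie below 0, as did 24 of 28 measured serpins, and Serpinb10, Serpinb2 and Serpinb8 are open points there. Of the markers, Lcn2 lies above 0 on that array, at 0.83.

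Several proteases that these serpins are known to inhibit passed 2-fold. Of the 6 measured neutrophil and mast cell serine proteases, cathepsin G (Ctsg) had signals of 12.2 with Chlorella swimming, 1471 with swimming and 132 with nonswimming. That gave ratios of -6.61 ± 0.26 for Chlorella swimming against swimming, -3.17 ± 0.26 for Chlorella swimming against nonswimming and 3.43 ± 0.20 for swimming against nonswimming. Neutrophil elastase (Elane) had 2.79, 162.7 and 15.4, at least 20.9-fold lower with Chlorella swimming than with swimming and 3.36 ± 0.25 for swimming against nonswimming. Proteinase 3 (Prtn3) had 1.75, 61.9 and 5.54, at least 7.97-fold lower and at least 9.30-fold higher in those comparisons. Mast cell chymase (Cma1), by contrast, was highest on the nonswimming array, with 197, 491 and 626 and a ratio of -1.40 ± 0.20 for Chlorella swimming against nonswimming, and mast cell markers summed to 2.31, 4.27 and 5.19.

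Of 14 cathepsins on the array, cathepsin E (Ctse), an aspartic protease of blood and immune cells, had 19.2 with Chlorella swimming, 647 with swimming and 60.6 with nonswimming, a ratio of -4.76 ± 0.23 for the first against the second and 3.37 ± 0.21 for the second against the third. Cathepsin K (Ctsk), the bone-resorbing cysteine protease, had 210, 413 and 524, with -1.05 ± 0.20 for Chlorella swimming against nonswimming. Cathepsin W (Ctsw), known from cytotoxic lymphocytes, had 5.06, 33.7 and 9.51, with 1.78 ± 0.29 for swimming against nonswimming. The other 10 measured cathepsins did not pass 2-fold, among them Ctsb with 13676, 17503 and 15144 and Ctsl with 11964, 14952 and 13432. Most granzymes were dim. Gzma was at least 4.28-fold higher with swimming (28.5) than with nonswimming (6.16), and at least 3.67-fold lower with Chlorella swimming (3.37) than with swimming. Gzmd had 5.92, 10.3 and 20.9, with -1.07 ± 0.28 for swimming against nonswimming.

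Among clade B genes known from surface epithelia, Serpinb5 and Serpinb7 had their highest signal on the nonswimming array. Serpinb5, maspin, an epithelial serpin, had signals of 1.43 on the Chlorella swimming array, 1.42 on the swimming one and 37.7 on the nonswimming array, and was well above background on the last alone. It was at least 6.73-fold lower with swimming than with nonswimming, and the bound for Chlorella swimming against nonswimming was -2.32 on the log2 scale. Serpinb7, known as megsin, had 8.42, 8.15 and 19.9, a ratio of -1.33 ± 0.33 for swimming against nonswimming, 2.52-fold lower, and -0.97 ± 0.33 for Chlorella swimming against nonswimming. Serpinb3c, related to the human squamous cell carcinoma antigens, had 9.43, 7.58 and 9.78, did not pass 2-fold, and was at 0.21 ± 0.36 for Chlorella swimming against nonswimming. The 10 keratinocyte markers summed to 3.19, 3.18 and 10.0 on the 3 arrays, with Krt1 and Dsg1a dim on all. Krt10 made up 62.9%, 53.8% and 40.8% of these sums, and without it they were 1.18, 1.47 and 5.94. Of the measured markers, 5 of 7 were at least 2-fold lower in swimming against nonswimming and 5 of 6 in Chlorella swimming against nonswimming. Loricrin (Lor) had at most 14.1 on both swimming arrays, against 393 on the nonswimming array. The part of skin RNA in the Serpinb5 and Serpinb7 values was not tested.

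Of the epithelial protease inhibitors outside the family, Spint2 and Spink5 were also highest on the nonswimming array, and Spint1 was not. Spint2 had 3.70, 2.75 and 35.9 and Spink5 had 1.57, 1.57 and 19.4 on the Chlorella swimming, swimming and nonswimming arrays. Spint2 was at least 4.77-fold lower with Chlorella swimming and at least 6.42-fold lower with swimming than with nonswimming. Spint1 had 4.61, 41.3 and 4.85, at least 5.31-fold lower with Chlorella swimming than with swimming and at least 6.20-fold higher with swimming than with nonswimming. Of 12 kallikreins and skin proteases listed, 6 were measured, and Klk1, tissue kallikrein, had 51.8, 341 and 24.1, with 3.78 ± 0.22 for swimming against nonswimming. St14, matriptase, had 8.73, 23.0 and 10.9, with 1.03 ± 0.29 for swimming against nonswimming and -1.09 ± 0.31 for Chlorella swimming against swimming. Of 20 measured inhibitors that are not serpins, Slpi, the secretory leukocyte protease inhibitor, had 23.2, 728 and 58.4, with -4.66 ± 0.22 for Chlorella swimming against swimming and 3.59 ± 0.21 for swimming against nonswimming. Wfdc2 had 21.8, 149.6 and 24.5, with -2.47 ± 0.23 and 2.56 ± 0.23 in those comparisons. Mug2, a plasma macroglobulin, was higher with Chlorella swimming (270) than with swimming (119) or nonswimming (151), at 1.49 ± 0.20 and 1.10 ± 0.20.

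By position, serpin genes lie in clusters. The probes that stand for 18 Serpina genes lie on chromosome 12 between 101109198 and 101908089, and those of 12 Serpinb genes on chromosome 13 (32208400 to 33336379) and 12 on chromosome 1 (106781864 to 107504598), by the scanner files' coordinates, for which the sources used here name no genome build. In the chromosome 12 cluster 10 of 11 measured genes were below 0 for Chlorella swimming against nonswimming, all but Serpina10, with a median of -0.48. Of all measured serpins 24 of 28 were, with a median of -0.47, so this cluster did not stand apart from the family. In the chromosome 13 cluster 5 of 6 were above 0 for swimming against nonswimming (median 0.18), where 55.1% of all measured genes were below 0. Of the 5, Serpinb6a (0.10 ± 0.20) and Serpinb9 (0.08 ± 0.22) lay within the scanner error. For Chlorella swimming against swimming 4 of 6 were below 0 (median -0.35), where 20 of 28 measured serpins and 40.1% of all measured genes were. In the chromosome 1 cluster the ratios for swimming against nonswimming ran from -1.33 (Serpinb7) to 2.71 (Serpinb10), so neighbours did not share a direction. Of the 18 serpin genes with several probes, 8 had some probes dim on all arrays while another was not. In 5 every probe was dim on all arrays, and in 5 none was.

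Most calls ended under a normexp correction with an offset of 50, which changes the background removal and adds a constant at once, and the effects of these steps were not separated. With it, the ratio for swimming against nonswimming shrank to 0.81 for Serpinb10, 0.92 for Serpina3g and -0.31 for Serpinb7. The ratio for Chlorella swimming against swimming became 0.44 for Serpina10, -0.64 for Serpinf2 and -0.47 for Serpinb1c, and the Serpind1 ratio for Chlorella swimming against nonswimming became -0.44. Each kept its direction and fell short of 2-fold.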

How the data were processed

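RNA of 3 muscle pools was measured on single-colour Agilent arrays, 1 per group. The deposited scanner files hold an intensity for each probe, which the authors made, per the submitters' processing notes, in Agilent Feature Extraction 9.5, with background subtracted by that software. The deposited value table holds log2 values of the authors, whose exact centring and scaling are not given in the sources used here. Its column medians were 0.01 for Chlorella swimming, -0.01 for swimming and 0.01 for nonswimming, and its differences followed the scanner values within 0.01 for 56.6%, 55.8% and 56.5% of 13683 spots in Chlorella swimming against swimming, Chlorella swimming against nonswimming and swimming against nonswimming. Across spots those differences correlated with the scanner values at 0.82, 0.71 and 0.76, while single genes can differ in sign.

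Processed signals of non-control probes without outlier flags were divided by the array's 75th percentile and put on the log2 scale. Probes were named by accession through RefSeq, otherwise by symbol, and the brightest probe stood for a gene. The threshold was 2-fold. Alternatives were quantile and cyclic loess normalization, normexp with an offset of 50 (limma 3.58.1, R 4.3.3), median centring, scaling over detected probes, detection on all 3 arrays, no filter, probe means, and the authors' table. Arithmetic used Python 3.11.15, numpy 2.4.6 and pandas 2.3.3, and was tested on simulated data. The number of arrays limits the precision: 1 per group leaves the spread between mice unmeasured, and the software's error was 10.0% at the median.

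Named were serpins past 2-fold in any comparison, the 8 of highest mean signal, and up to 4 genes past 2-fold in each partner list. The remaining measured serpins are given too, and genes named beyond these were chosen after their values were seen. No protein or probe sequence was used here. The members, lists, motifs and promoters were chosen with earlier results of these data known. Leaving out replicates and blocking were not possible with 1 array per group. The counts cover all members, but 1 member and 1 partner gene are not reported here by name or in the figures.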

Additional observations from a re-analysis of the deposited data

How the results depend on the processing

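Without replicates, stability was judged by 9 other ways of processing the same arrays. The median serpin ratio kept its sign in all of them, from -0.33 to -0.06 for Chlorella swimming against swimming, -0.49 to -0.28 for Chlorella swimming against nonswimming and -0.35 to -0.09 for swimming against nonswimming. Centring each array on its median shifted the typical gene by 0.13 in the first comparison and -0.15 in the last. Of 10 called ratios, 9 kept their sign throughout, and 1, Serpina3g for Chlorella swimming against swimming, stayed at least 2-fold throughout. Serpinb1c turned to 0.21 in that comparison when its 2 probes were averaged, 1 of which is dim on all arrays. Counts moved with several settings. For Chlorella swimming against swimming, 1 higher and 4 lower serpins became 0 and 2 with normexp, and 4 and 8 with no filter, which adds genes at background, and the higher count became 0 with probe means. For Chlorella swimming against nonswimming, 0 higher and 1 lower became 3 and 6 with no filter, while the lower count became 0 with normexp and 2 with cyclic loess. For swimming against nonswimming, 2 higher and 2 lower became 0 and 0 with normexp and 1 and 1 in the authors' deposited table, which holds 26 of the 53 genes. There the lower count became 6 with no filter and 1 with probe means, and the higher count became 1 when a signal well above background on all 3 arrays was required. No paired analysis was possible because each group has 1 array.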

Other observations

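Outside the naming rule, 4 probes matched serpin genes by accession or symbol: 2 for Serpina4-ps1, 1 for Serpine3 and 1 more for Serpinb6a. None was well above background on any array. The brighter Serpina4-ps1 probe read 5.06 on the Chlorella swimming array, 2.10 on the swimming one and 3.75 on the nonswimming one. Serpine3 read 1.80, 1.51 and 1.75 on those arrays.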
